A study of Drosophila melanogaster with 12 samples.

Results

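The comparison set heads of Drosophila melanogaster kept at 29°C, a warm temperature for this species, against heads kept at the standard laboratory temperature of 25°C. The members are the 8 libraries of these temperatures out of the 12 libraries of the series, chosen by the temperature in the sample labels and paired by time point. All flies were Canton-S, a wild-type laboratory strain, with no transgene, and their age and sex are not given in the labels. They were entrained at each temperature to cycles of 12 h of light and 12 h of dark, and no other treatment is named. For its crosses the paper states rearing at 25°C, with young adults left there or moved to 18°C or 29°C. At each temperature heads were taken at ZT3, ZT9, ZT15 and ZT21, where ZT counts hours from lights on, so that ZT3 and ZT9 fall in the light and ZT15 and ZT21 in the dark. AGO1 was pulled down from head lysates with an antibody, and the small RNAs bound to it were sequenced. The 4 libraries of heads at 18°C entered the estimate of the spread and the filters that chose what was tested, but not the compared means.

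In flies most miRNAs sit in AGO1, an Argonaute protein that, guided by them, represses mRNAs with matching sites. A miRNA is cut from a hairpin that has a 5p arm and a 3p arm. Usually the guide strand is kept in Argonaute and the strand from the other arm, the passenger or star strand, is mostly discarded, although passenger strands can also be loaded. Flies do not hold their body temperature, so the molecular machinery of the head works at the temperature of the vial. The study asked how temperature reshapes gene expression and timeless regulation in the head, and miRNAs bound to AGO1 were one readout. The measured quantity is the miRNA held by AGO1, so a change in amount and a change in loading cannot be told apart, and neither can fewer cells of a type and less miRNA per cell.

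Each value is a normalised read count, that is, the reads of a mature miRNA divided by 1 size factor for its library. The 8 libraries held 4414354 reads (29°C, ZT21) to 16807571 reads (25°C, ZT15). No pair of libraries of 1 temperature repeated another, since r of log2 values was 0.978 to 0.993 and chi-square per degree of freedom was at least 213. Of the marker lists, the muscle miRNAs miR-1-3p and miR-133-3p and the 4 miRNAs of photoreceptors and sensory cells were abundant and none of these was called between the temperatures. miR-124-3p, the arm that marks neurons, was low in reads in these libraries, at 86.0 to 268, and below its partner arm. Whether this reflects its level in heads was not tested. It was not called either (log2 fold change -0.58, adjusted p = 0.114 in limma). The list of 21 testis-biased hairpins summed to 326 to 424 per library, and that of early embryo and germ line miRNAs to 635 to 4402. In the former 1 of 8 tested arms was called, miR-964-5p (12.5% against 10.8% over all miRNAs tested), and in the latter 0 of 10. miR-6-3p, an early embryo miRNA, reached 1683 in the 25°C ZT9 library and 1121 and 1118 in the 29°C libraries of ZT9 and ZT15, against 219 to 383 in the other 5. The part of these markers in the differences below was not tested.

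Warm heads differed from standard heads in a limited set of AGO1-bound miRNAs, most of them by less than 2-fold. Of the 399 miRNAs kept from the table, 240 had enough reads to be tested, and 26 of them (10.8%) were called at an adjusted p under 0.05 in limma with Benjamini-Hochberg adjustment. Of these, 9 (3.75% of those tested) were higher at 29°C and 17 (7.08%) were lower. The miRNAs that rose included miR-33-5p, miR-284-5p and the related miR-92a-3p and miR-92b-3p, and those that fell included miR-219-3p, miR-277-5p and miR-1013-3p. With the further limit of a 2-fold change, 7 miRNAs (2.92%) were called, 4 higher and 3 lower, and each had a mean under 1000 normalised reads. The other 19 shifted by less than 2-fold. The 4 libraries at 29°C did not overlap the 4 at 25°C in 41 of the 240 miRNAs (17.1%), and 25 of these were among the 26 called. The difference had the same sign at all 4 time points in 89 of the 240 (37.1%), and in 26 of the 26 called. The median change over all miRNAs tested was -0.018 on the log2 scale. At an unadjusted p under 0.05 there were 61 miRNAs.

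The number of calls moved more with single libraries than with the test. With edgeR on the recovered reads 23 miRNAs were called and with DESeq2 30. Leaving out 1 library gave 10 calls without the 25°C library of ZT3 or of ZT9, 12 without that of ZT21, 12, 11 and 15 without the 29°C libraries of ZT3, ZT9 and ZT15, and 55 without the 18°C library of ZT21. The fitted direction of the 26 was the same under each alternative tried. The call held under each alternative for 9 miRNAs, miR-4919-3p, miR-33-5p, miR-219-3p, miR-92b-3p, miR-2c-5p, miR-1013-3p, miR-277-5p, miR-285-5p and miR-284-5p.

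**Figure D1:**
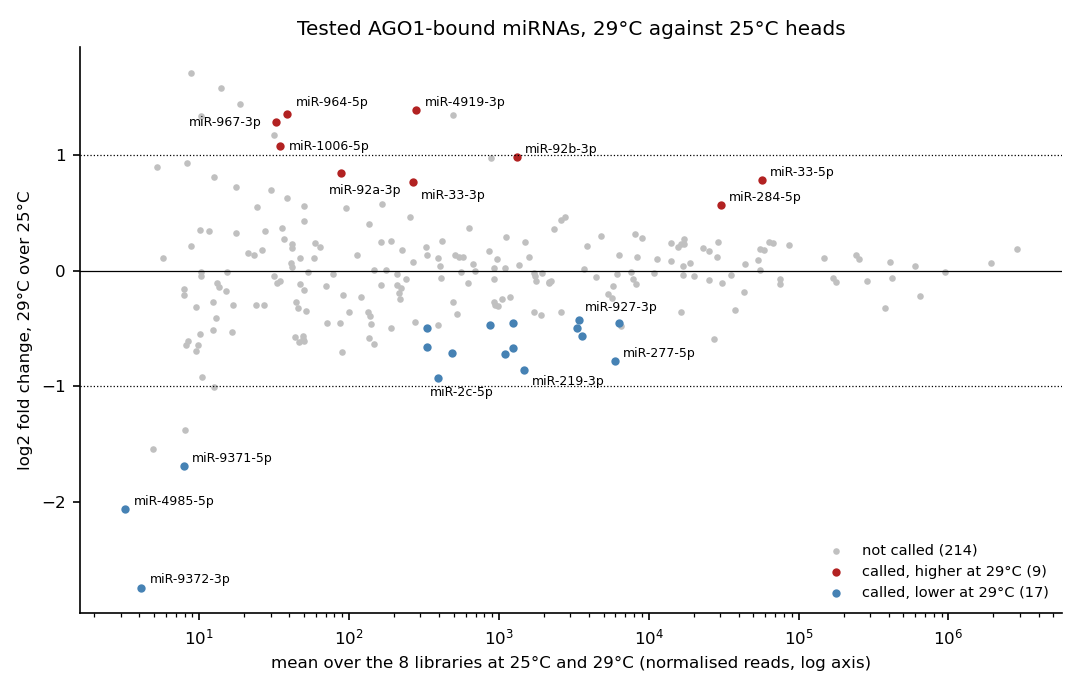
The log2 fold change of each of the 240 tested miRNAs (29°C over 25°C) against its mean over the 8 libraries in normalised reads, on a log axis, with the 9 miRNAs called higher in red and the 17 called lower in blue. Dotted lines mark a 2-fold change. The called miRNAs with means of at least 1000 lie between the dotted lines, and those beyond them have means under 1000.

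The largest shift in normalised reads among the called miRNAs was that of miR-33-5p. Its hairpin lies in an intron of SREBP, on the same strand, at 3L:19797961-19798059 (BDGP6.54). SREBP is the transcription factor that switches on lipid synthesis, and in mammals miR-33 lies in introns of SREBP genes and represses sterol export. In the order ZT3, ZT9, ZT15 and ZT21, miR-33-5p stood at 41870.4, 38519, 43665 and 42774 at 25°C and at 80158, 69423, 62013 and 76062 at 29°C. Every 29°C library was above every 25°C library. The means were 41707 ± 2248 and 71914 ± 7946 (SD, n = 4), a rise of 1.72-fold (95% interval 1.45 to 2.03) with a log2 fold change of 0.78 ± 0.11 (SE) and an adjusted p of 0.00177. At 18°C the mean was 30280.4 ± 1605. The passenger arm of the same hairpin moved alike. miR-33-3p ranged from 175 to 223 at 25°C and from 282 to 421 at 29°C, 1.70-fold higher (adjusted p = 0.0136), and its call was lost without the ZT3 or ZT9 library of 25°C or the ZT3 library of 29°C (adjusted p 0.0548 to 0.0812). mir-33 was the hairpin with both arms called, 1 of 25 hairpins that gave the 26 called miRNAs.

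The next most abundant miRNA that rose was miR-284-5p, whose hairpin overlaps the 3′ UTR of Octbeta2R, a receptor for octopamine, at 3R:12551515-12551614. It stood at 22823, 24275, 27892 and 23012 at 25°C and at 35326, 39178, 37754 and 32634 at 29°C in the same order of time points. The groups did not overlap, and the means of 24500.4 ± 2351 and 36223 ± 2873 (SD, n = 4) differed by 1.48-fold (log2 fold change 0.57 ± 0.10 SE, adjusted p = 0.00398). At 18°C its mean was 13179 ± 2005. Its partner arm miR-284-3p did not pass the test (log2 fold change 0.021, 95% interval -0.25 to 0.29).

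The guide arms of mir-92a and mir-92b both rose. The hairpins mir-92a, at 3R:25646506-25646600 in an intron, and mir-92b, at 3R:25651398-25651497 in the 3′ UTR, belong to jigr1. This pair is known for keeping neuroblasts, the neural stem cells of the larval brain. miR-92b-3p stood at 899, 887, 898 and 816 at 25°C and at 1908, 2341, 1394 and 1426 at 29°C. All 4 warm libraries were higher, with the ZT3 and ZT9 libraries above those of the dark. The means were 875 ± 40.0 and 1767 ± 449 (SD, n = 4), and the log2 fold change was 0.98 ± 0.15 (SE, adjusted p = 0.00185). miR-92a-3p was much lower in reads, with 43.2, 58.2, 81.4 and 72.9 at 25°C and 108, 126, 122 and 96.9 at 29°C, a 1.80-fold rise (adjusted p = 0.0431). Its groups did not overlap either, but its call stood near the threshold. It was lost with edgeR (adjusted p = 0.0637), with TMM scaling or scaling to the library total (0.0507 and 0.0803), with no filter on low values (0.0598), in limma without trend and robust estimation (0.0588), and without any of 10 libraries, all but the 18°C libraries of ZT3 and ZT21 (adjusted p 0.0514 to 0.163).

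Of the miRNAs called past 2-fold, miR-4919-3p was the best measured. Its hairpin lies in an intron of Cyp4aa1, a cytochrome P450 gene, and no other arm of it is listed. It stood at 179, 137, 173 and 132 at 25°C and at 429, 508, 358 and 342 at 29°C. Every warm library was far above the highest standard library, and the means of 155 ± 24.4 and 409 ± 76.0 (SD, n = 4) differed by 2.61-fold (95% interval 2.01 to 3.40, adjusted p = 0.00147). At 18°C the mean was 84.4 ± 10.2.

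The other 3 that rose past 2-fold were low in reads. miR-964-5p comes from a cluster, mir-959 to mir-964, that is known for daily cycling in the fat body of the head. The cluster is also on the list of testis-biased hairpins. Its members miR-963-3p and miR-960-3p were not called in limma (log2 fold change 1.58 and 1.33, adjusted p = 0.079 and 0.0937). At 25°C miR-964-5p stood at 23.8, 10.2, 31.5 and 23.5 and at 29°C at 72.7, 57.8, 48.0 and 43.4, with no overlap (log2 fold change 1.35 ± 0.32 SE, adjusted p = 0.0231). miR-967-3p, from an intron of bun at 2L:12460004-12460100, stood at 11.9, 13.3, 27.6 and 25.07 and 43.3, 55.0, 43.5 and 43.4 (adjusted p = 0.0312). For both the 25°C and 29°C libraries did not overlap, and the difference was larger at ZT3 and ZT9 than at ZT15 and ZT21. miR-1006-5p is an arm of a mirtron, a hairpin that is released by splicing of a short intron instead of by Drosha, here an intron of VhaSFD at 2L:16724795-16724858. It stood at 25.95, 23.5, 19.7 and 19.0 and 54.9, 50.8, 41.6 and 43.4, 2.12-fold higher in warm heads (adjusted p = 0.0231). Its 4 differences were close to each other, 1.04 to 1.15 on the log2 scale. Each of these 3 calls was lost when certain single libraries of 25°C or 29°C were left out. For miR-964-5p these were ZT3, ZT9 and ZT21 of 25°C and ZT3 and ZT9 of 29°C (adjusted p 0.0594 to 0.105). For miR-967-3p they were ZT3, ZT9 and ZT21 of 25°C and any of 29°C (0.0506 to 0.141), and for miR-1006-5p any of 25°C and ZT3, ZT9 and ZT15 of 29°C (0.0526 to 0.102). DESeq2 also ended the call of miR-967-3p (adjusted p = 0.0530).

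**Figure D2:**
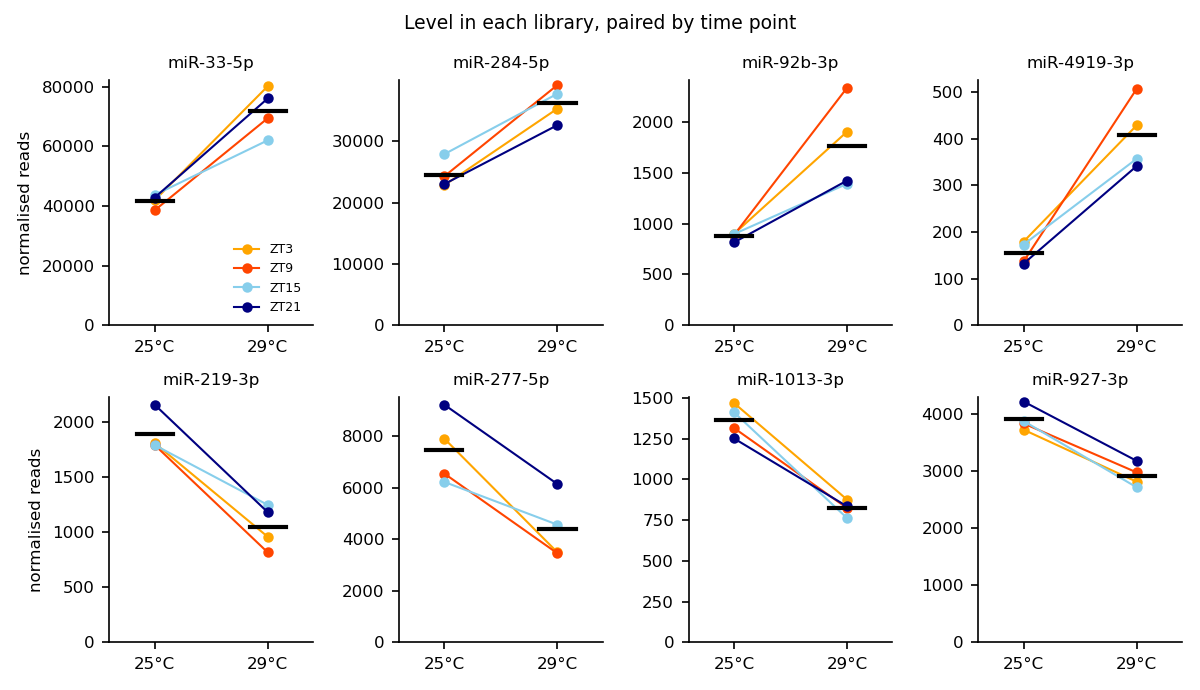
Normalised reads of 4 miRNAs that rose (top) and 4 that fell (bottom) in each library at 25°C and 29°C, with lines joining the libraries of 1 time point and black bars at the means of n = 4. In each panel the 4 lines run in 1 direction and the values at the temperatures do not overlap, as for miR-33-5p with 38519 to 43665 at 25°C and 62013 to 80158 at 29°C.

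Among the miRNAs that fell, miR-219-3p had the smallest adjusted p. It is the more abundant arm of mir-219, which lies between annotated genes at 3L:17315006-17315105. In mice miR-219 is known as a regulator of the period of the central clock, but a role of the fly 3p arm in the clock was not tested here. miR-219-3p stood at 1809, 1792, 1791 and 2157 at 25°C and at 958, 817, 1247 and 1181 at 29°C. No warm library reached the lowest standard library. The means were 1887 ± 180.3 and 1051 ± 199 (SD, n = 4), 1.81-fold lower in warm heads (log2 fold change -0.86 ± 0.12 SE, adjusted p = 0.00177). At 18°C the mean was 2511 ± 95.1. The 5p arm was at 474 to 732 and 449.9 to 735 and did not pass the test (log2 fold change -0.0088, 95% interval -0.47 to 0.45).

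miR-277-5p is the passenger arm of mir-277, whose guide miR-277-3p controls the breakdown of branched-chain amino acids in flies. The hairpin is in the noncoding RNA lncRNA:CR43459 at 3R:10100022-10100121. The passenger stood at 7901, 6545, 6220.2 and 9214 at 25°C and at 3492, 3453, 4562 and 6138 at 29°C, and the highest warm library was just below the lowest standard library. It was 1.72-fold lower (log2 fold change -0.78 ± 0.14 SE, adjusted p = 0.00398). The guide, at 244783 ± 27706 and 262169 ± 33475 (SD, n = 4), was not called (log2 fold change 0.097, 95% interval -0.13 to 0.33).

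miR-1013-3p comes from a mirtron in wts, the gene of the central kinase of the Hippo growth pathway, at 3R:30791636-30791696. It stood at 1468, 1315, 1411 and 1251 at 25°C and at 876, 824, 762 and 834 at 29°C, with a narrow spread in both groups and a wide gap between them. It was 1.65-fold lower in warm heads (log2 fold change -0.72 ± 0.12 SE, adjusted p = 0.003). At 18°C its mean was 1389 ± 166. miR-285-5p, the less abundant arm of an intergenic hairpin at 3L:11946093-11946191, ranged from 1358 to 1716 at 25°C and from 818 to 1084 at 29°C, 1.59-fold lower (adjusted p = 0.00398). miR-2c-5p, the less abundant arm of a hairpin of the K box family in lncRNA:CR45911 at 3R:15417744-15417845, ranged from 438 to 583 and from 203 to 357, 1.90-fold lower (adjusted p = 0.00194).

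A further 5 miRNAs with means of at least 1000 fell by smaller amounts, and none of them overlapped between the groups. miR-927-3p, from an intron of mmd at X:15965947-15966038, stood at 3728, 3837, 3879 and 4221 at 25°C and at 2816, 2979, 2718 and 3181 at 29°C. This was the smallest change that was called, 1.34-fold (log2 fold change -0.42 ± 0.098 SE, adjusted p = 0.022). miR-965-5p, from an intron of the chromatin remodeller gene kis at 2L:243035-243141, ranged from 3602 to 4136 and from 2275 to 3351, 1.41-fold lower. miR-137-3p, from a hairpin between annotated genes, ranged from 3599 to 4838 and from 2629 to 3509, 1.48-fold lower. miR-278-5p is the less abundant arm of mir-278, a miRNA gene known in flies for energy balance and the response to insulin. It ranged from 6916 to 7757 and from 4633 to 6189, 1.37-fold lower, with larger differences at ZT3 and ZT9. miR-133-5p, the less abundant arm of the muscle miRNA mir-133, ranged from 1288 to 1702 and from 980.3 to 1171, 1.37-fold lower. Adjusted p ran from 0.0231 to 0.0359 for the latter 4. All 5 calls were lost when single libraries were left out, with adjusted p of 0.0508 to 0.158. The libraries of ZT3, ZT9 and ZT21 at 25°C and of ZT9 at 29°C did so for each of the 5. In addition it was ZT15 of 25°C for miR-927-3p, miR-137-3p and miR-133-5p, ZT3 of 29°C for all but miR-137-3p, ZT15 of 29°C for all but miR-965-5p, ZT21 of 29°C for miR-965-5p, miR-137-3p and miR-133-5p, ZT15 of 18°C for miR-137-3p, miR-278-5p and miR-133-5p, and ZT9 of 18°C for miR-133-5p. In limma without trend and robust estimation the calls of miR-137-3p, miR-278-5p and miR-133-5p were lost (adjusted p 0.0588 to 0.0605), and with no filter on low values those of miR-278-5p and miR-133-5p (0.0533 and 0.0598).

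At means of 100 to 1000, 4 more miRNAs fell. miR-1001-5p, from the 3′ UTR of tau at 3R:27642466-27642555, the gene of a microtubule-associated protein, stood at 653, 731, 419 and 647 at 25°C and 381, 323, 377 and 388 at 29°C, 1.64-fold lower (adjusted p = 0.0136). Its difference was small at ZT15, where the 25°C library was the lowest of its group. miR-124-5p, from the hairpin of a miRNA that is strongly enriched in neurons, stood at 903, 1011, 950.1 and 1185 and 709, 760.2, 719.7 and 724 (adjusted p = 0.0379). The annotated guide of that hairpin, miR-124-3p, was lower in reads than its partner and stood at 132, 150.1, 114 and 268 and 99.0, 86.0, 96.9 and 145, which overlapped (adjusted p = 0.114). miR-1000-3p, the passenger of a miRNA that limits the glutamate transporter VGlut in neurons, ranged from 325 to 435 and from 256 to 298 (adjusted p = 0.0306). miR-1010-5p, an arm of a mirtron in SKIP, ranged from 356 to 469 and from 232 to 305.97 (adjusted p = 0.0379). These 4 lost their calls when single libraries were left out, miR-1001-5p without ZT3, ZT9 or ZT21 of 25°C or ZT3 or ZT9 of 29°C (adjusted p 0.0562 to 0.0812), and the other 3 without the 18°C library of ZT15 or any library of 25°C or 29°C, except that of ZT15 at 25°C for miR-1000-3p and miR-1010-5p (up to 0.178). The call of miR-124-5p was also lost with edgeR (adjusted p = 0.0541), with TMM scaling (0.0507) and with scaling to the library total (0.0557). With no filter on low values miR-124-5p, miR-1000-3p and miR-1010-5p were not called (adjusted p 0.0592 to 0.0684), and in limma without trend and robust estimation neither miR-124-5p nor miR-1010-5p was (0.0598 and 0.0609).

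The 3 miRNAs that fell past 2-fold were at the limit of detection. miR-9372-3p, whose hairpin overlaps a coding exon of Dredd, a caspase gene of the immune response, stood at 14.1, 9.19, 6.56 and 2.28 at 25°C. At 29°C it was at 0 in 3 libraries and had 1 read at ZT15. The summed reads were 35 and 1, a ratio of 25.8 at equal depth with a 95% exact interval of 4.34 to 1048 that covers counting error only. At 18°C its mean was 69.5 ± 25.85. miR-9371-5p, in the 3′ UTR of Glut4EF, stood at 14.1, 9.19, 15.7 and 9.88 at 25°C and 3.09, 2.82, 0.905 and 7.65 at 29°C, with 59 and 10 reads in all and a ratio of 4.35 (2.21 to 9.54). miR-4985-5p stood at 5.41, 4.08, 8.53 and 3.80 at 25°C and had 5 reads at ZT3 and 0 in the other 3 libraries at 29°C, a ratio of 3.98 (1.51 to 13.2). It was the 1 called miRNA whose groups overlapped, and with edgeR and DESeq2 it was not called (adjusted p = 0.120 and 0.179). The adjusted p values in limma were 0.00653, 0.0295 and 0.0379. No library of 29°C held more than 5 reads of any of the 3, so all 3 passed the filter on reads through the colder libraries alone. miR-9372-3p and miR-4985-5p passed it only because the 18°C libraries counted in it. The call of miR-9371-5p was lost without ZT3, ZT9 or ZT15 of either temperature (adjusted p 0.0718 to 0.103), that of miR-4985-5p without any of 9 libraries, all but ZT3 of 29°C and ZT3 and ZT21 of 18°C (0.0549 to 0.137), and those of miR-9372-3p and miR-4985-5p with a pseudocount of 10 (0.0895 for both).

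**Figure D3:**
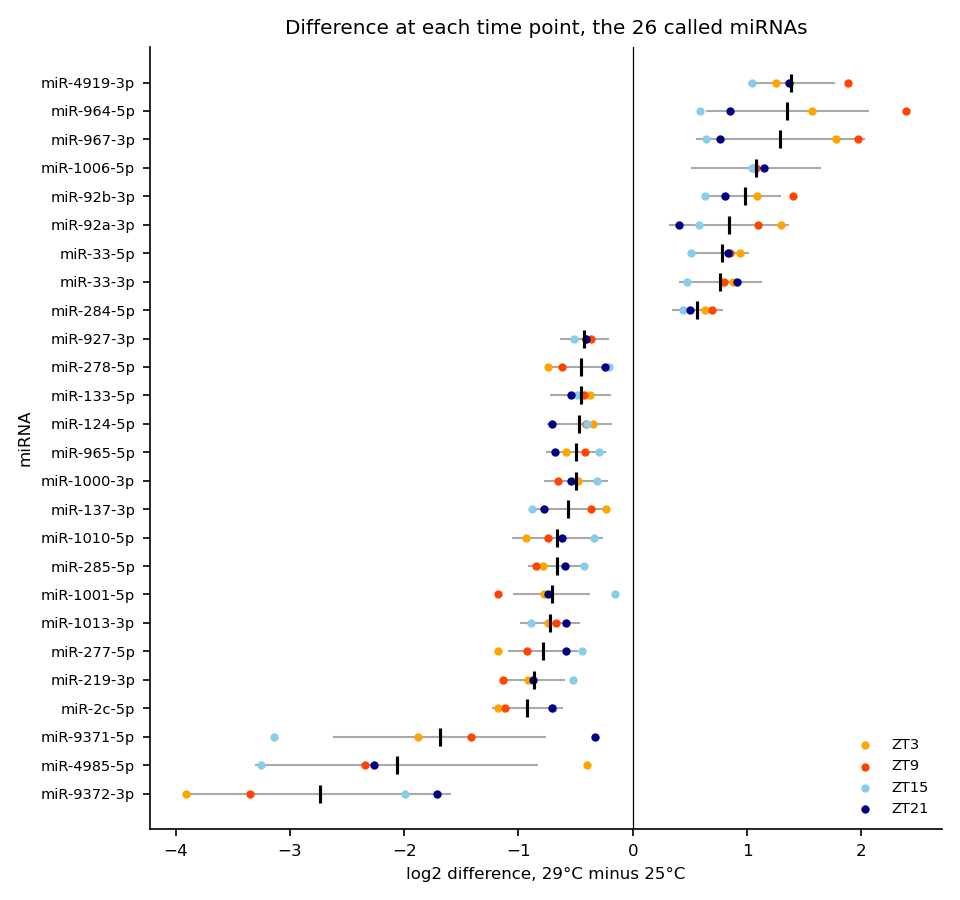
Log2 difference (29°C minus 25°C) at each of the 4 time points for the 26 called miRNAs, as coloured points, with the fitted change as a black tick and its 95% interval as a grey line. All 4 points of each miRNA lie on 1 side of 0. The widest intervals belong to the 3 miRNAs at the bottom, with means under 10 normalised reads.

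The miRNAs that fill most of AGO1 in the head were not called. The 10 most abundant took 80.2% ± 1.04 of normalised reads at 25°C and 80.0% ± 0.886 at 29°C (SD, n = 4), while the 26 called miRNAs took 0.972% ± 0.105 and 1.22% ± 0.0540. miR-276a-3p, which represses timeless in the fly clock, stood at 3142540.0, 2769900.0, 2738240.0 and 2187370.0 at 25°C and 2996370.0, 2976140.0, 3135440.0 and 3153350.0 at 29°C (log2 fold change 0.19, 95% interval -0.065 to 0.44). The 25°C library of ZT21 was low and the groups overlapped. miR-14-3p, which acts in insulin-producing cells and lipid metabolism, had means of 1866470.0 ± 114405 and 1957100.0 ± 122306 (log2 fold change 0.068, -0.16 to 0.29), and miR-8-3p, which promotes growth through insulin signalling, of 948587 ± 147538 and 942311 ± 147295 (-0.0098, -0.31 to 0.29). All 3 overlapped between the temperatures.

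Among the 10, bantam-3p and miR-999-3p had groups that did not overlap and still did not pass the test. bantam-3p, a growth regulator that also acts in the clock, ranged from 682396 to 731008 at 25°C and from 506185 to 652293 at 29°C. The fitted change was -0.22 ± 0.11 (SE, log2 scale, adjusted p = 0.254), with most of the gap at ZT9. miR-999-3p ranged from 397458 to 451555 and from 296381 to 365073 (-0.32 ± 0.15, adjusted p = 0.206). The muscle miRNA miR-1-3p was too variable to compare, from 236149 to 653404 and from 259882 to 509309, with a 95% interval of -1.01 to 0.88 on the log2 scale. The other 4 were miR-184-3p, miR-276b-3p, miR-34-5p and miR-277-3p, with log2 fold changes of -0.087 to 0.097 and adjusted p of at least 0.64.

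**Figure D4:**
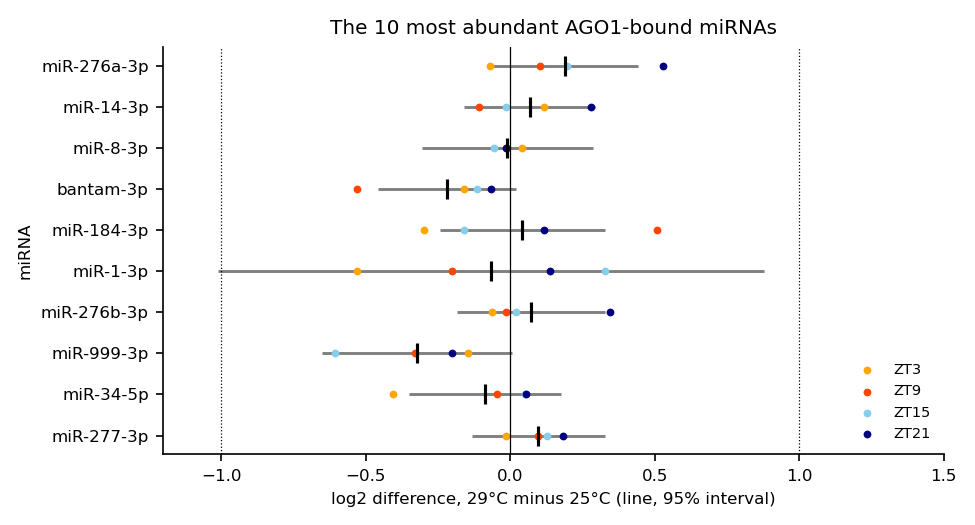
Log2 difference (29°C minus 25°C) at each time point (coloured points) for the 10 miRNAs with the highest mean, ordered by abundance, with the fitted change as a black tick and its 95% interval as a grey line. Each interval includes 0, and that of miR-1-3p, from -1.01 to 0.88, is the widest.

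By class of abundance the share called ran from 4.08% to 21.7%, against 10.8% over all miRNAs tested. The classes rest on few calls, and the difference between them was not tested. Among 49 miRNAs with means of at least 10000, 2 were called (4.08%), miR-33-5p and miR-284-5p, both higher. Among 46 with means of 1000 to 10000, 10 were called (21.7%), 1 higher and 9 lower. The classes of 100 to 1000 and of under 100 held 59 miRNAs with 7 calls (11.9%) and 86 with 7 (8.14%). The median SE of the log2 fold change was 0.126 in the most abundant class and 0.341 in the least. There were 9 miRNAs with a fitted change past 2-fold that did not pass, 8 of them with means under 100. The exception was miR-956-3p, named here after its values were seen, which was at 60.2 to 100.1 in 5 of the 8 libraries and above 1000 in the 25°C library of ZT15 and the 29°C libraries of ZT15 and ZT21.

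The arms of 1 hairpin often moved apart. The arm ratio, log2 of 5p reads over 3p reads, does not depend on the scaling between libraries, and it was tested in the 89 hairpins whose arms each had 10 or more reads on average. It was called in 18 (20.2%) at an adjusted p under 0.05 in limma, and 31 were under an unadjusted p of 0.05. The libraries did not overlap between the temperatures in 17 of the 89 (19.1%), of which 13 were among the 18 called. In each of the 18 the 4 time points had 1 sign. The calls come from the same 4 differences, so this sign is no further support, and its share over all 89 is not given here. In 14 of the 18 the less abundant arm lost share at 29°C and in 4 it gained share. Over all 89 hairpins the sign was toward a lower less abundant arm in 58 and a higher one in 31, with a median of -0.14 on the log2 scale. In 8 of the 18 the 5p arm alone was called by its level, in 6 the 3p arm alone, in 0 both arms, and in 4 neither arm.

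Hairpins whose passenger arm lost share included several with abundant guides. In mir-1000 the log2 ratio was 2.57, 2.36, 2.72 and 2.42 at 25°C and 3.69, 3.66, 3.24 and 3.23 at 29°C. The groups did not overlap, and the 3p share of the hairpin went from 14.9% to 8.42% (difference 0.94 ± 0.17 SE, adjusted p = 0.000251). The 5p guide itself was at 2131 to 2333 and 2477 to 3456 and narrowly missed a call by level (adjusted p = 0.0567). In mir-277 the log2 ratio was -4.95, -5.38, -5.06 and -4.80 and -6.11, -6.39, -5.63 and -5.57, again without overlap, and the 5p share went from 2.97% to 1.66% (difference -0.88 ± 0.16 SE, adjusted p = 0.000251). In mir-133 the 5p share went from 8.41% to 5.35% (adjusted p = 0.00113), in mir-927 the 3p share from 5.95% to 3.84% (0.00147), and in mir-278 the 5p share from 21.6% to 14.6% (0.00147). These 3 did not overlap between the temperatures either.

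In mir-285 the 5p share went from 44.0% to 33.6% (adjusted p = 0.00411), with overlap of the 29°C library of ZT21 with 25°C. mir-375 was called by its ratio although neither arm was called by its level. miR-375-3p was 0.37 higher and miR-375-5p -0.57 on the log2 scale, and the 5p share went from 8.70% to 4.66% (adjusted p = 0.00486) with no overlap. The other hairpins called by ratio alone, mir-988, mir-263a and mir-210, are named here for the same feature after their values were seen, with differences of -0.55, 0.68 and -0.55. The call of mir-210 was lost in the fit without the time points as a block (adjusted p = 0.0767), with an offset of 5 reads (0.0605), in limma without trend and robust estimation (0.124) and without ZT3, ZT15 or ZT21 of 25°C or ZT3, ZT9 or ZT15 of 29°C (0.093 to 0.225). That of mir-263a was lost in limma without trend and robust estimation (adjusted p = 0.0525) and without ZT9, ZT15 or ZT21 of 25°C or ZT9 of 29°C (0.0543 to 0.112), and that of mir-988 without ZT3 or ZT9 of 25°C or ZT9 of 29°C (0.055 to 0.0857).

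In 4 hairpins the less abundant arm gained share. The widest change was in mir-967, whose log2 ratio was 2.30, 1.39, 1.04 and 1.23 at 25°C and 0.38, -0.37, 0.029 and 0 at 29°C, so that the 3p share went from 26.4% to 49.9% and the arms became nearly equal (adjusted p = 0.0012). In the mirtron mir-1006 the 5p share went from 1.92% to 4.91% (log2 ratio -5.75, -5.62, -5.77 and -5.45 and -4.33, -4.12, -4.85 and -3.87, adjusted p = 0.000748). In mir-219 the 5p share went from 22.8% to 34.9% (0.000882), with the 3p arm as the arm whose level was called. mir-137 was the fourth, with a difference of 0.57 ± 0.20 SE and an adjusted p of 0.0331. The first 3 kept their calls under each alternative tried, and mir-137 lost it without ZT3, ZT15 or ZT21 of 25°C or ZT9 or ZT15 of 29°C (adjusted p 0.0547 to 0.163). In all, 10 of the 18 hairpins kept their calls throughout and leaving out 1 library gave 13 to 25 calls.

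**Figure D5:**
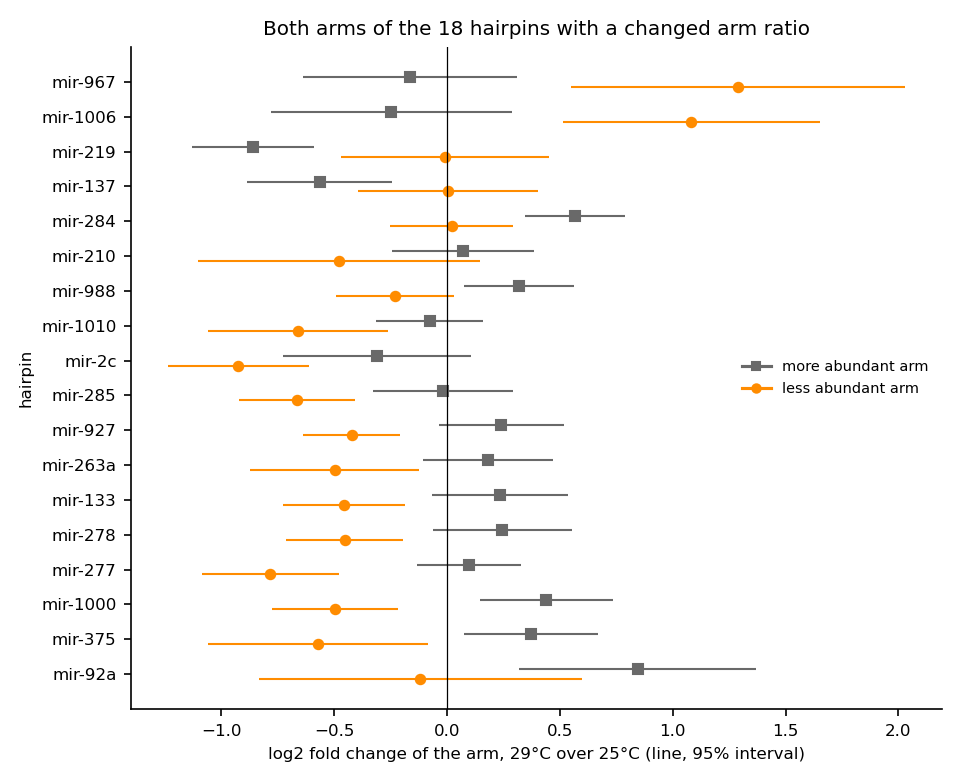
Log2 fold change (29°C over 25°C) of the more abundant arm (grey squares) and the less abundant arm (orange circles) of the 18 hairpins with a called arm ratio, with 95% intervals, ordered by the change of the less abundant arm relative to its partner. The 4 hairpins at the top are those whose less abundant arm gained share, and in the other 14 the orange circle lies to the left of the grey square.

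By level, both kinds of arm held calls in both directions. Of 90 less abundant arms tested, 3 were called higher and 8 lower, with a median log2 fold change of -0.10. Of 127 more abundant arms, 5 were called higher and 8 lower, with a median of 0.023. Over all miRNAs tested 3.75% were called higher and 7.08% lower, and the difference between the kinds of arm was not tested. The 23 miRNAs with no other arm listed held 1 call in each direction, miR-4919-3p and miR-1013-3p.

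No miRNA was called for a warm difference that changed between light and dark. In limma 0 of the 240 miRNAs (0%) passed for the interaction of temperature with light or dark, with 9 under an unadjusted p of 0.05 and a smallest adjusted p of 0.975, and edgeR gave 0 calls with 12 under an unadjusted p of 0.05. The 9 included miR-92b-3p, with log2 differences of 1.24 in the light and 0.72 in the dark, miR-278-5p, with -0.68 and -0.23, and miR-137-3p, with -0.30 and -0.83. Light and dark each rest on 2 time points per temperature. Without the 29°C library of ZT21, 1 miRNA was called, miR-989-3p (adjusted p = 0.0220), which stood at 196 in the 29°C library of ZT15 and at 11.2 to 25.95 in the other 7 libraries.

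Among lists of miRNAs with known roles, the share of members called ran from 0% to 28.6%, beside 10.8% over all miRNAs tested. The lists are small and these shares were not tested. The study's predictions of TargetScan sites in the 3′ UTRs of timeless isoforms named 134 mature miRNAs, of which 113 were in the table and 72 were tested. Of these, 5 were called higher and 2 lower, 9.72% against 10.8% over all miRNAs tested, and the median log2 fold change was -0.052 against -0.018. The 5 were miR-4919-3p, miR-33-5p, miR-92b-3p, miR-284-5p and miR-92a-3p, and the 2 were miR-137-3p and miR-1010-5p. Of 23 tested miRNAs of the clock and rhythm list, miR-964-5p and miR-92a-3p were called higher and miR-124-5p lower, 13.0% of the list, with a median of 0.069. The let-7 complex, which times development, had 0 calls among 6 arms and the miR-9 and miR-79 family 0 among 10, by limma. The K box family, named for a motif in Notch target genes, had 1 among 18 (5.56%), miR-2c-5p. Of 6 arms of mir-34, mir-277 and mir-317, a cluster whose miR-34 is linked to aging in flies, miR-277-5p was called lower (16.7%).

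In the list for metabolism and insulin signalling 4 of 14 arms were called (28.6% against 10.8% over all miRNAs tested), miR-33-5p and miR-33-3p higher and miR-277-5p and miR-278-5p lower, with a median of 0.083. The called members of this list other than miR-33-5p were the less abundant arms of their hairpins, while the guides miR-14-3p, miR-8-3p, miR-277-3p and miR-278-3p were not called. Of 19 tested arms of mirtrons, miR-1006-5p was called higher and miR-1010-5p and miR-1013-3p lower, 15.8% of the list against the same 10.8%, with a median of -0.045.

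Of the miRNAs that were not called, 16 had groups that did not overlap, 9 with 29°C above and 7 below, bantam-3p and miR-999-3p included. Those with the smallest adjusted p, named after their values were seen, were miR-1015-3p at 6.49 to 12.5 and 19.0 to 38.3 (adjusted p = 0.0547), miR-1000-5p (adjusted p = 0.0567) and miR-996-5p at 1829 to 2139 and 1389 to 1697 (adjusted p = 0.0681). Just inside the threshold stood miR-92a-3p (adjusted p = 0.0431), and just outside it bantam-5p, with a log2 fold change of -0.36 (adjusted p = 0.0501 in limma). The other 159 of the 399 miRNAs were not tested for want of reads.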

How the data were processed

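Small RNAs bound to AGO1 in heads of Canton-S flies were sequenced by the authors, who assigned reads to mature miRNAs of miRBase with miRExpress, whose version is not given in the sources used here. The deposited values are a signal made by the authors, reads divided by 1 size factor per library (0.392 to 1.52). Whole reads were recovered for 100% of 4896 values within 0.01 of a whole number. Of 408 rows, 399 were kept: 8 repeated a mature name and 1 held the same values as a row of another name, since reads shared by hairpins cannot be assigned to 1 of them. Reads per library (4414354 to 16807571 at 25°C and 29°C) were not collapsed by molecular identifiers, so intervals on reads cover counting error only. miRNAs that passed filterByExpr were tested with limma 3.58.1 in R 4.3.3 on log2(value + 1), a scale that understates changes of low miRNAs, with trend and robust estimation, over 12 libraries, with temperature and time point as terms. Arm ratios used an offset of 0.5 reads, at least 10 mean reads per arm, and a variance trend on the rarer arm. Calls were made at a Benjamini-Hochberg adjusted p under 0.05, where stated with a log2 change over 1. The time point in the labels pairs the libraries: deviations of libraries of the same time point from their group means had correlations of 0.282, 0.422, 0.238 and 0.358. Libraries of unlike time points had -0.583 to 0.299, and the highest of these was above the matched values of ZT3 and ZT15. Nothing in the labels says that libraries came from separate cultures, so p-values measure the spread between these libraries only. In the main fits this is the spread left after the time point is fitted. It still includes any difference between temperatures in the course of the day. edgeR 4.0.16 and DESeq2 1.42.0 on recovered reads were alternatives, as were other scalings, filters, pseudocounts, sample sets and leaving out each library. The test had been set for a table of scaled values or counts, and the former applied. The main limma fit of miRNAs and the fit of arm ratios were tried on simulated data, and the interaction fit and the alternatives were not. Hairpin positions came from the Ensembl 115 annotation of BDGP6.54, in which 238 of 238 hairpins were found by name. Named with values were miRNAs called past 2-fold, up to 20 called ones with a mean of at least 1000, the 10 most abundant, the 10 hairpins with the smallest adjusted p for the arm ratio, and up to 4 called members of each list. Further called miRNAs were added so that all 26 are accounted for. Members and lists were chosen with earlier results of these data known.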

Additional observations from a re-analysis of the deposited data

Results flagged for a closer look

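In 94 groups of 4 libraries that carry named results, 7 held a library far from the other 3 by Dixon's criterion. This is 7.45%, where chance gives about 1 in 20 for independent normal values. The groups share libraries, so the rates cannot be compared directly. A group with 0 in 3 libraries, as for miR-4985-5p and miR-9372-3p at 29°C, is flagged by construction. At 29°C miR-4985-5p stood at 3.87 at ZT3 and at 0 in the others, miR-9372-3p at 0.905 at ZT15 and at 0 in the others, miR-967-3p at 55.0 at ZT9 against 43.3 to 43.5, and miR-1001-5p at 323 at ZT9 against 377 to 388. At 25°C the ZT21 library had 2157 of miR-219-3p against 1791 to 1809, and 816 of miR-92b-3p against 887 to 899. The log2 arm ratio of mir-278 at 29°C was -2.11 at ZT15 against -2.74 to -2.66. Each of these libraries other than that of miR-4985-5p was still outside the range of the other temperature.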

How the results depend on the processing

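Under the alternatives other than leaving out a library, 20 to 35 miRNAs were called (26 as reported). The fit without the time points as a replicate block called 29, including all 26, with 8 past 2-fold and 17 arm ratios, and changed no named call except the arm ratio of mir-210. Leaving out 1 library gave 10 to 55 miRNAs, 2 to 12 past 2-fold (7 as reported), 13 to 25 arm ratios (18 as reported) and 0 to 1 interactions with light and dark. With a pseudocount of 10, 2 miRNAs were past 2-fold, and with at least 100 mean reads 1 was, since the filter leaves out the rest of the 7. The cause of the pseudocount's effect lies in its construction, as it shrinks changes of low values. For the 26 miRNAs, 138 of 637 alternative values missed the threshold, in 17 miRNAs, and 0 changed direction. For the 18 arm ratios it was 34 of 320, in 8 hairpins, and 0. The scalings moved the median change of all miRNAs by at most 0.055 on the log2 scale. Keeping all rows of repeated names left 26 calls, and the fit of the 8 libraries with no block gave 26; both were chosen after seeing the data. Depth limits the miRNAs under 100 normalised reads, where a single read is worth 0.656 to 2.55.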

Other observations

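A few miRNAs that were not called between 29°C and 25°C switched between low and high levels from library to library, and are listed as values chosen after they were seen. miR-956-3p stood at 1043 in the 25°C library of ZT15, at 1058 and 1472 in the 29°C libraries of ZT15 and ZT21, and at 60.2 to 100.1 in the other 5. At 18°C it was at 556 and 948 in the ZT9 and ZT21 libraries and at 41.1 and 37.4 in those of ZT3 and ZT15. miR-958-3p was high in the same libraries, with 20.3 in the 25°C library of ZT15, 17.2 and 30.6 in the 29°C libraries of ZT15 and ZT21 and 8.34 and 20.6 in the 18°C libraries of ZT9 and ZT21, against at most 1.41 in the other 7.

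The early embryo miRNAs of the mir-309 cluster varied together in another set of libraries. miR-286-3p stood at 954 in the 25°C library of ZT9, at 398 and 899 in the 29°C libraries of ZT9 and ZT15 and at 930.3 in the 18°C library of ZT3, against 50.3 to 156 in the other 8. miR-5-5p had its 4 highest values in the same libraries, 900, 477, 603 and 639, against 105 to 230.3 in the others. miR-989-3p, at 196 in the 29°C library of ZT15, was at 11.2 to 25.95 in the other 11.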
